A study of Mus musculus with 2 samples.

Results

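The transcripts described here are 806 mouse RNAs that the annotation classes as retained intron and that were expressed in 2 total RNA libraries of hippocampus. They were selected on measured TPM values (a level scaled for transcript length and library depth): a transcript is a member where both deposited quantifications gave it at least 5 TPM in both libraries. The quantifications are named by their column layouts, RSEM and kallisto, and values are from the RSEM layout unless stated. Of 21848 annotated transcripts of the class, 806 in 652 parent genes met this rule, and of all 141767 mouse transcripts 11953 passed the same thresholds. Both libraries were made from tissue labelled as a layer of the hippocampus of female 5xFAD/CAST mice aged 8 to 10 months. 5xFAD mice carry human transgenes with familial Alzheimer mutations under the neuronal Thy1 promoter, and CAST is a wild-derived strain. The libraries form 1 group, both carry the transgene label, and no mouse without it was analysed here. The labels give the replicates separate biosamples but the same donor record, so separate animals are not settled, and every SD below is the spread between these 2 libraries. Each library started from 300 ng of total RNA with ERCC spike-in RNAs, in a stranded preparation that removes ribosomal RNA.

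Splicing removes introns from the primary transcript, and an intron that stays in an otherwise processed RNA is called retained. Many such RNAs stay in the nucleus or are degraded, and those that reach the cytoplasm often meet a stop codon inside the intron and enter nonsense-mediated decay. In neurons, retained introns are known in transcripts that are held in the nucleus and spliced later, and genes for splicing factors are known to use retained or poison segments to limit their own protein. In an annotation, the class also takes in partial models of RNA that merely start or end inside an intron.

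The libraries held 27816845 and 32316737 expected counts, of which the members took 1.15% and 1.10%. The median member had a mean of 219 counts, and the lowest had 18.7. All 10 hippocampal subfield markers were at 1 TPM or more in both libraries, with a summed TPM of 402 in replicate 1 and 445 in replicate 2. Markers of choroid plexus, a neighbouring tissue, summed to 459 TPM in replicate 1 and 160.5 TPM in replicate 2, with 6 of 10 at 1 TPM or more in both and none at 0. No member belongs to a gene of either marker list. Among genes at 5 TPM or more in both libraries, only 1 of the hippocampal list and 0 of the choroid plexus list have an annotated retained-intron transcript. Nothing is therefore read from this absence.

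The sequences of 7 introns that a member holds whole are shown first, because they show what the class name means where it applies in full. They come from named members with an intron entirely inside 1 exon, and only introns with 20 coding bases on both sides qualified. They were taken in order of share among those, so Rps20-201 and others with higher shares are not shown, and 1 that qualified is not reported. Each intron separates coding exons of another transcript of the gene. All are from the mm10 build, read 5′ to 3′ on the transcribed strand with 20 bases of exon on each side. Capitals mark the first 2 and last 2 bases of the intron and the first stop codon in the reading frame that enters it.

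Mrps26, a protein of the small mitochondrial ribosomal subunit, has its second of 3 introns of Mrps26-202 retained in Mrps26-201, at chr2:130564228-130564307 on the plus strand. Its 80 bases hold no in-frame stop and leave a remainder of 2 when divided by 3, so the frame shifts after it.
Mrps26-201: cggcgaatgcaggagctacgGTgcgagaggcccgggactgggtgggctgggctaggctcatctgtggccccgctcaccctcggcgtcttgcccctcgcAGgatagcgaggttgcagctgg
Prelid1, which moves phosphatidic acid inside mitochondria, has an 82-base intron retained in Prelid1-202, at chr13:55324445-55324526 on the plus strand, also without an in-frame stop and with a remainder of 1.
Prelid1-202: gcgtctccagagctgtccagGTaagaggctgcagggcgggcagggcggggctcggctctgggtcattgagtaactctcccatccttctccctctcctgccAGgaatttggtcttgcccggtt
Cd83, an immune cell surface protein, has its first intron of 95 bases retained in Cd83-202, at chr13:43785251-43785345 on the plus strand. Its first in-frame stop, TAG, begins at intron base 93 and is formed by the acceptor site itself.
Cd83-202: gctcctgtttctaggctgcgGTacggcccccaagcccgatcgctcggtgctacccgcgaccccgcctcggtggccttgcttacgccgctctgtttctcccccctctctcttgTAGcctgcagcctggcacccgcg
Ncl encodes nucleolin, an abundant nucleolar protein, and Ncl-202 retains a 190-base intron at chr1:86352320-86352509 on the minus strand. Its in-frame TAA begins at intron base 2, so the stop overlaps the donor site.
Ncl-202: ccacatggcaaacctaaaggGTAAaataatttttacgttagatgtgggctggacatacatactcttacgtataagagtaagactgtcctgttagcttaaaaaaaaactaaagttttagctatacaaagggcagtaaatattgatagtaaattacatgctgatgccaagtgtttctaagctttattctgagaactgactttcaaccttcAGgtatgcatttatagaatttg
Ppdpf-205 retains a 72-base intron at chr2:181187737-181187808 on the plus strand, with TAG at intron base 6 in frame.
Ppdpf-205: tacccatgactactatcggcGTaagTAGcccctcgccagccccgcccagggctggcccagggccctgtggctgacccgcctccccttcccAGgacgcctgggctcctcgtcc

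The other 2 introns are longer, and only the first 80 and last 80 intron bases are shown. Olfml3 encodes a secreted glycoprotein made by microglia in brain, and its first intron of 584 bases, at chr3:103737238-103737821 on the minus strand, has TAG in frame at base 46. Srsf6 encodes a serine and arginine rich (SR) splicing factor, and its 1283-base intron, at chr2:162932143-162933425 on the plus strand, has TAG at base 186, which lies between the windows shown.
Olfml3-202 donor side: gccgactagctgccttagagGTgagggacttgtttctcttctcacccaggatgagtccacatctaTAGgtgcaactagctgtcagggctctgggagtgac
Olfml3-202 acceptor side: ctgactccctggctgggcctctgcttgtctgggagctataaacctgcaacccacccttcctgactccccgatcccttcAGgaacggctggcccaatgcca
Srsf6-204 donor side: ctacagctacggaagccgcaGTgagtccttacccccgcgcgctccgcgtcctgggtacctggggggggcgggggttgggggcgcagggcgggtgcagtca
Srsf6-204 acceptor side: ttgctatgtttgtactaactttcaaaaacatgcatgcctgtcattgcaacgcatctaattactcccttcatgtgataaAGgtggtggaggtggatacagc

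The 3 members of highest TPM hold no whole intron, and their sequences show the other and more frequent form of the class. Each starts a short way inside an intron and then runs through exons that the coding transcripts of the gene share. They were picked for display after their values were seen. Capitals mark the intronic stretch at the start of the transcript, and lower case the next 20 bases of coding exon. Uchl1-202 (a neuronal deubiquitinating enzyme) begins with 52 bases at chr5:66676892-66676943 on the plus strand, Itm2b-202 (a membrane protein also called BRI2) with 78 bases at chr14:73368428-73368505 on the minus strand, and Ctsb-202 (the lysosomal protease cathepsin B) with 90 bases at chr14:63135518-63135607 on the plus strand. All 3 stretches end in the AG of the acceptor site.
Uchl1-202: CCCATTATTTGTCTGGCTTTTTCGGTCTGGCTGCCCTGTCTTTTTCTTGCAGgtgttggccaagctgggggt
Itm2b-202: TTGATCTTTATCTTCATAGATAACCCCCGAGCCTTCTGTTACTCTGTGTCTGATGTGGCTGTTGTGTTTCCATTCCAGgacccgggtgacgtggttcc
Ctsb-202: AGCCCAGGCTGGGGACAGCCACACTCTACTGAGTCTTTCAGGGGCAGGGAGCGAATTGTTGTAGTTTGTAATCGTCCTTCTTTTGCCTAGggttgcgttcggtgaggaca

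Most members were minor transcripts of their genes. A member's share is its TPM divided by the summed TPM of all transcripts of its gene, a ratio of levels that are both per length. The median share over the 806 members was 16.4% in replicate 1 and 15.6% in replicate 2, or 16.0% ± 0.575 (SD, n = 2), with quartiles of 8.78% and 27.2%. Shares ran from 0.339% to 94.5%. A share of at least 50% was found for 52 members (6.45%), and 238 members (29.5%) held less than 10%. The median member stood at 9.94 TPM, with quartiles of 7.46 and 16.3 TPM and a highest mean of 239.6 TPM. These levels chose the members, so they describe them and were not tested.

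Other transcript classes past the same thresholds held larger shares. The median was 58.7% for 9998 protein-coding transcripts, 26.3% for 294 transcripts classed as nonsense-mediated decay and 23.3% for 519 processed transcripts. Members were also short, with a median length of 848.5 bases against 2852.5 for the coding transcripts. The deposited posterior SD of the count, which covers the counting and assignment of reads within 1 library, was a median of 7.45% of the count for members and 3.50% for coding transcripts.

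**Figure D1:**
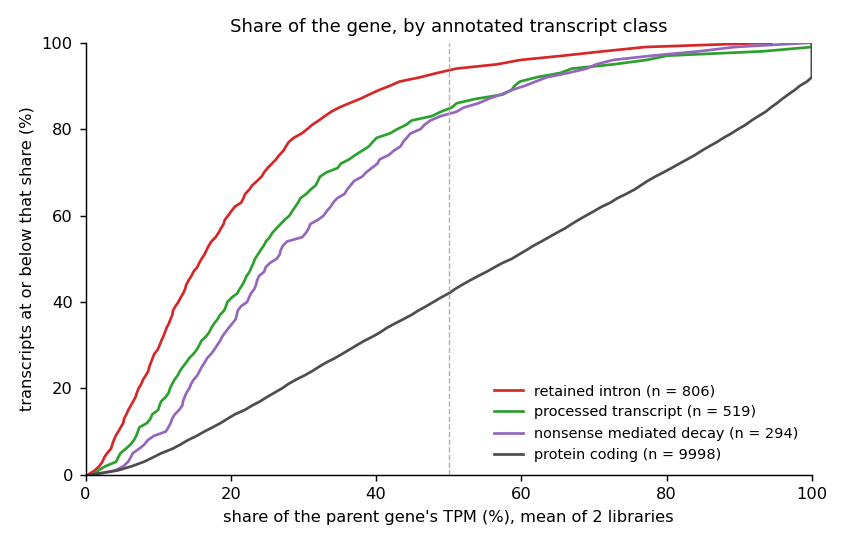
Cumulative distribution of the share of the parent gene's TPM (x axis, percent, mean of 2 libraries) for transcripts past the 5 TPM thresholds, with the percent of transcripts at or below each share on the y axis and 1 line per annotated class. The retained-intron line lies to the left of the other 3, with its median at 16.0% and 6.45% of members at or beyond the dashed line at 50%.

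The rule's limit fell within a dense range of levels. Just inside it, the lowest of the 4 TPM values was 5.0 for Preb-208 and 5.01 for Cmtr1-207 and Zfp932-205. Just outside, it was 4.999 for R3hdm4-206, 4.995 for Slc4a3-205 and 4.99 for Man2c1-222. Without any threshold, the 21848 annotated transcripts of the class held 4.16% and 3.92% of all transcript TPM in replicates 1 and 2, beside 40.0% and 41.5% for the protein-coding class. Of them, 6384 reached 1 TPM in all 4 values.

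Parent genes were mostly represented by 1 member. Of the 652 genes, 536 had 1 member, 84 had 2 and 32 had 3 or more. Summed over members, 67 genes (10.3%) gave at least 50% of their TPM to retained-intron transcripts. Pooled over all parent genes, members took 16.9% and 16.3% of the TPM in replicates 1 and 2, or 16.6% ± 0.445 (SD, n = 2). A member was the highest transcript of its gene in 144 cases by the RSEM-layout values and in 160 by the kallisto-layout values, with 113 in both. Against the highest protein-coding transcript of the gene, or the highest of another class for 6 members without one, 179 members stood above it. All but 6 members belong to protein-coding genes.

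The gene with the most members was Snrnp70, which encodes the U1-70K protein of the U1 spliceosomal particle. Its 5 members together held 53.3% of the gene's TPM in replicate 1 and 49.9% in replicate 2. Its longest and highest, Snrnp70-216 at chr7:45376462-45395658, stood at 42.8 and 37.5 TPM, above the highest coding transcript Snrnp70-201 at 36.1 and 33.4 TPM in the same libraries. The 4 members of Srsf11, an SR-related splicing factor, held 49.97% and 49.8%. Napa, a factor that recycles membrane fusion complexes, had 4 members with 35.6% and 35.9%. Gria2, the glutamate receptor subunit that limits calcium entry, had 4 with 36.0% and 34.3%. Nsmf, a protein that signals from synapse to nucleus, had 4 with 17.7% and 16.5%. The libraries were farthest apart for Snrnp70 and closest for Srsf11 in this group of 5 genes.

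The label fits only some of the members in its literal sense. Introns were taken from the coding transcripts of the gene, or from those of other classes where it has none. A whole intron of these lay inside an exon of 248 members (30.8%), while 541 (67.1%) reach into an intron without holding it whole. A further 16 have no intronic bases that other classes lack, and 1 has such bases elsewhere. These proportions were near those of the 21042 other annotated transcripts of the class, of which 30.4% hold a whole intron and 68.2% reach into one. Among the 541, the extra bases lay at the start in 278, at the end in 196, at both ends in 48 and at neither end in 19. Whole introns numbered 1 in 191 members, 2 in 34 and 3 or more in 23, up to 7.

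Part of what can set a member apart from other classes in the reads is its own bases. These are here the exonic bases that no transcript of another class of the gene covers. Other retained-intron transcripts of the gene can share own bases, as Cpne6-205 and Cpne6-206 do. Exon junctions and transcript ends can also differ between classes and were not compared. Members had a median of 248.5 own bases, or 25.9% of their length, against 354 and 41.5% for the other annotated transcripts of the class. Fewer than 100 own bases were found in 216 members, and fewer than 50 in 78. The 216 had a median share of 25.5% and supplied 32 of the 52 shares of at least 50%. The other 590 had a median share of 13.8%. The posterior SD was a median of 11.5% of the count below 100 own bases and 6.36% above it. The median absolute log2 ratio between the kallisto-layout and RSEM-layout levels was 0.36 and 0.19 in the same order. Shares of at least 50% thus belonged to 32 of 216 members with few own bases and 20 of 590 others, and the part of read assignment in this was not tested. The median share was 15.8% for the 248 members with a whole intron and 15.9% for the 541 that reach into one.

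**Figure D2:**
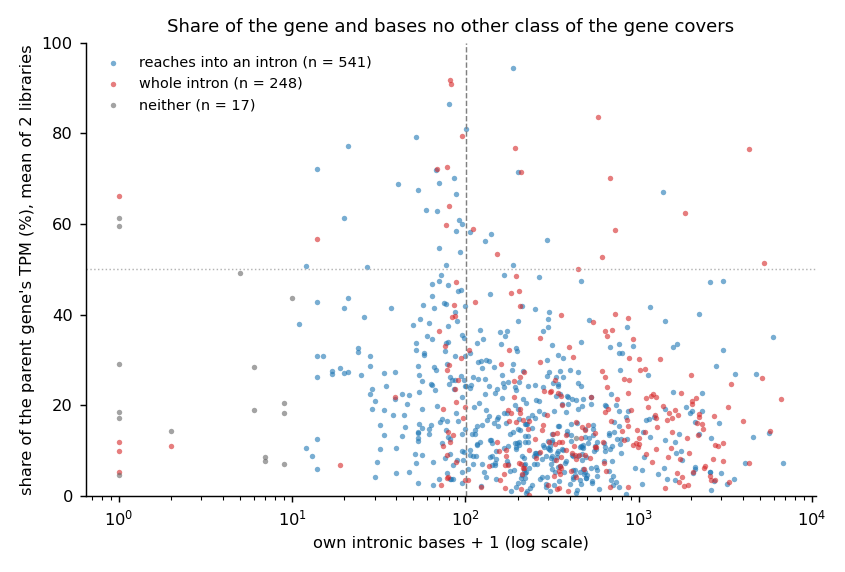
Each point is 1 of the 806 members, with its own bases plus 1 on a log x axis and its mean share of the parent gene's TPM over 2 libraries (percent) on the y axis, coloured by structure. The dashed line marks 100 own bases and the dotted line a share of 50%; 32 of the 52 points at or above the dotted line lie to the left of the dashed one.

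The members of highest TPM came from abundant neuronal, lysosomal, mitochondrial and ribosomal genes. Uchl1-202, at chr5:66676892-66687229, had 228 and 250.7 TPM in replicates 1 and 2 by the RSEM-layout values, and 81.2 and 88.1 TPM by the kallisto-layout values. Its share was therefore 67.4% in the first and 25.9% in the second, while the libraries differed little within each. Only the 52 capital bases shown above, of a length of 980, are its own. Itm2b-202, at chr14:73362885-73368505, had 215 and 239 TPM and a share of 46.5%, with 78 own bases of 935. Ctsb-202, at chr14:63135518-63141863, had 212 and 210.5 TPM by one set of values and 222 and 209.7 by the other, a share of 60.9% or 65.0%. Cathepsin B is thus a case where both sets of values place a partial model above the full coding transcript Ctsb-201, which stood at 132 and 133 TPM.

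The next members came from genes of mitochondria, iron transport and signalling. Atp5j-208, from a subunit gene of mitochondrial ATP synthase, had 122 and 133 TPM and 79.9% and 81.8% of the gene. Its coding transcript Atp5j-201 had 14.3 and 12.9 TPM. Chchd10-202, from a gene of a mitochondrial intermembrane protein, had 82.0 and 89.9 TPM and 57.7% and 59.3% of the gene, and a gene on the other strand, Gm867, overlaps it. Trf-209, from the transferrin gene, had 127 and 106 TPM but only 10 own bases of 433, and its share was 37.9% by RSEM-layout and 19.1% by kallisto-layout values. Prkcb-208, a single-exon model of 955 bases in the gene of protein kinase C beta, had 102 and 112 TPM and 39.0% of the gene in both libraries. Of these it has the most own bases, 297.

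Grcc10-203, Rsrp1-204, Hspa8-204 and Nudt3-205 complete the 15 outside the ribosomal proteins. Grcc10-203 had 115 and 130.2 TPM and 77.4% and 76.9% of its gene with 20 own bases, and the annotated gene Gm45234 shares its strand. Rsrp1-204 had 84.5 and 73.0 TPM and 57.4% and 56.1% of the gene. It holds a whole intron, yet only 13 of its bases are its own, since exons of other classes cover the rest of that intron. Hspa8-204, from the gene of the constitutive Hsp70 chaperone, had 74.2 and 80.8 TPM by RSEM-layout values but 45.2 and 23.2 by kallisto-layout values. Nudt3-205 had 80.6 and 73.0 TPM and 36.6% and 32.6% of its gene.

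**Figure D3:**
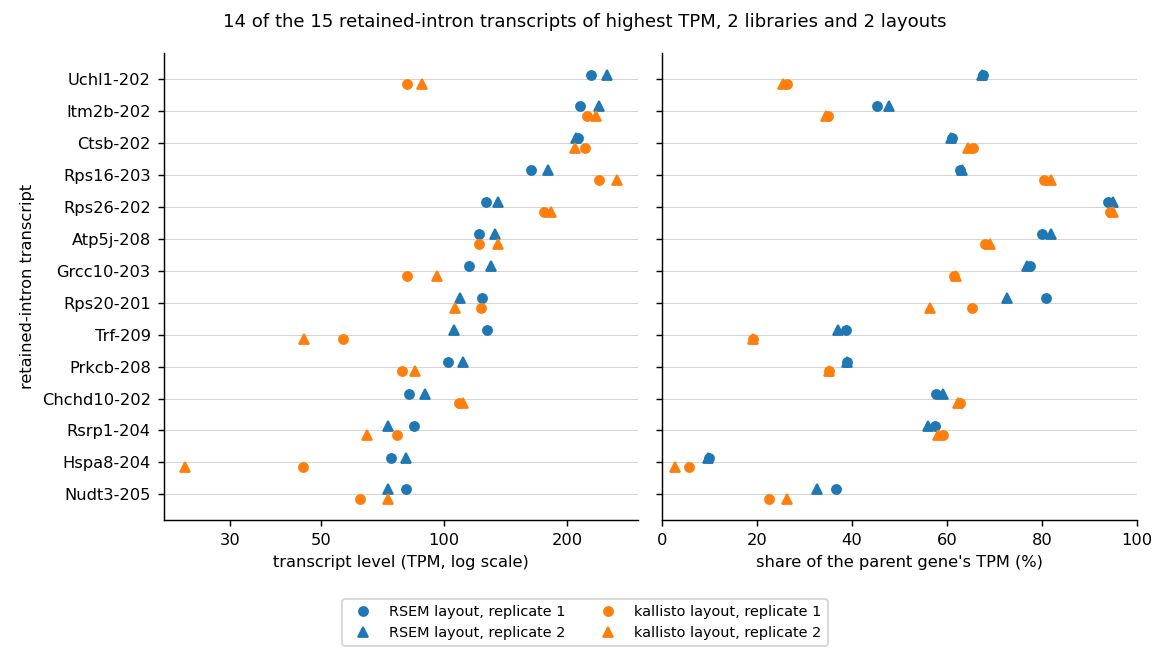
Levels in TPM (left, log axis) and shares of the parent gene's TPM in percent (right) for 14 of the 15 members of highest mean TPM, with a circle for replicate 1 and a triangle for replicate 2, in blue for RSEM-layout and orange for kallisto-layout values. The replicates lie close together for most members, while the colours separate for Uchl1-202, Trf-209 and Hspa8-204, among others.

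The highest shares mixed whole introns with partial models. Rps26-202, a model of a small-subunit ribosomal protein gene with 187 own bases, held 94.0% and 94.96% of the gene, at 127 and 136 TPM. Mrps26-201, whose intron is shown above, held 91.7% and 91.8% at 30.3 and 34.9 TPM, and the spliced Mrps26-202 had 2.73 and 3.13 TPM. Prelid1-202 held 90.6% and 91.0% at 55.5 and 56.5 TPM, against 5.78 and 5.58 TPM for the coding Prelid1-201. In both genes the retained intron is the only own sequence, at 80 and 82 bases. Genes on the other strand overlap both, 4930473A02Rik and Mxd3, and whether antisense reads were kept apart is not stated.

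Olfml3-202 and Cd83-202, from genes known in microglia and other immune cells, also held most of their genes. Olfml3-202 had 18.9 and 21.1 TPM and 82.7% and 84.3% of the gene, with a whole intron of 584 bases as its own sequence. The spliced coding transcript Olfml3-201 had 3.95 and 3.92 TPM. Cd83-202 had 7.46 and 7.16 TPM and 82.0% and 76.7%, against 1.64 and 2.17 TPM for Cd83-201. Both shares were of the same size by the kallisto-layout values, at 84.8% and 92.8% for Olfml3-202 and 81.7% and 76.9% for Cd83-202. Mrpl57-202, from a large mitochondrial ribosomal subunit gene, held 85.9% and 87.1%, and Chic2-202 held 78.0% and 80.3%, with 79 and 51 own bases.

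The lowest shares belonged to members of very abundant genes. The rule sets this: a member has at least 5 TPM, so only a gene of high TPM can leave it so low a share. Fth1-202, from the ferritin heavy chain gene, had 6.66 and 6.35 TPM, which was 0.333% and 0.344% of the gene. Thy1-202 had 14.5 and 14.0 TPM, or 0.579% and 0.530%. Gapdh-205 had 6.61 and 6.79 TPM, or 0.665% and 0.613%, Ctsd-203 of the cathepsin D gene had 0.640% and 0.784%, and Atp1b1-202 of the sodium pump had 1.37% and 0.682%. The coding transcript Fth1-201 stood at 1931 and 1794 TPM, and Thy1-201 at 1122 and 1185 TPM. Genes with a member had a median of 68.7 TPM, against 20.5 TPM for 5847 other expressed genes that have an annotated retained-intron transcript. The same minimum favours genes of high TPM, so nothing is read from that difference.

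The introns that members hold whole were mostly short, and most hold a stop codon in the entering frame. There were 334 distinct ones, of which 294 lie between coding exons, 24 in 5′ UTRs, 8 in 3′ UTRs and 8 in noncoding transcripts. The usual GT and AG ends were present in 324, GC and AG in 7, and other ends in 3. In 255 of the 294 coding introns (86.7%) the entering frame met a stop inside the intron, at a median of base 42, and in 155 of them within the first 60 bases. Of the 39 without a stop, 12 are divisible by 3 and so keep the frame. Stops were not counted in other introns, so the 86.7% is not read as particular to these. Every base of 236 of the 334 introns is absent from other classes of the gene, while 27 introns lie entirely under an exon of another class.

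They were shorter than the other introns of the main transcripts of these genes, as a description with no test. The comparison took the highest coding transcript of each gene, 221 in all, or the highest of another class where the gene has no coding one. Some of these transcripts, such as Aak1-201, contain no intron that a member holds whole. Of their introns, the 282 held whole had a median length of 257.5 bases and the 2494 others 536 bases. Fewer than 150 bases were found in 28.0% of the first and 22.1% of the second. The first intron of the transcript made up 11.0% and 7.62%, and the last 6.74% and 8.10%. The GC content of the 334 was a median of 54.4%, against 55.5% in up to 100 exon bases on each side, and it exceeded the flanks in 144. The length is not particular to the expressed members: 7568 introns held whole only by other annotated transcripts of the class had a median of 259 bases.

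**Figure D4:**
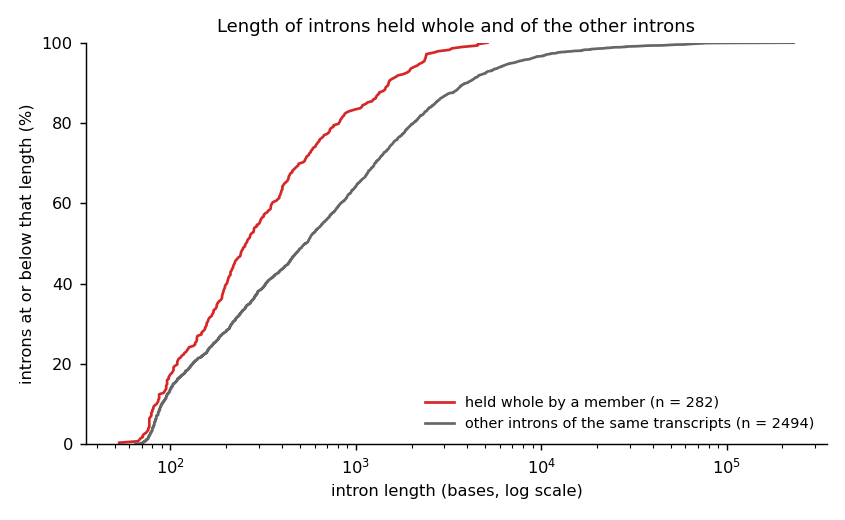
Cumulative distribution of intron length (x axis, bases, log scale) for introns of 221 transcripts, the highest coding transcript of each gene or the highest of another class. The lines are the 282 introns held whole by a member and the 2494 others, with the percent of introns at or below each length on the y axis. Some of the 221 contain no intron held whole. The red line of introns held whole lies to the left, with a median of 257.5 against 536 bases.

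Many genes that act in splicing had a member. Of 6499 expressed genes with an annotated retained-intron transcript, 652 (10.0%) had a member. Among the SR proteins, which bind exons and recruit the spliceosome, it was 7 of 10: Srsf1, Srsf2, Srsf3, Srsf5, Srsf6, Srsf11 and Tra2a. Among core spliceosome and RBM genes it was 16 of 36, and among hnRNP genes, whose proteins coat nascent RNA, 5 of 18. Of the CLK and SRPK kinases, which phosphorylate SR proteins, 2 of 7 had a member, Clk1 and Clk4. Of 16 splicing regulators listed for brain 3 had one, Celf3, Mbnl2 and Qk. The expressed genes of these lists had median levels of 36.0 to 67.9 TPM, above the 20.8 TPM of all expressed genes, and a higher gene passes a fixed TPM minimum more easily; the part of gene level in these counts, and in those of the lists that follow, was not tested.

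The SR protein members were of middling share and mostly carried long stretches of intron. Srsf2-203 had 24.1 and 22.5 TPM and 32.6% and 28.5% of its gene, with 874 own bases. Srsf6-204, whose intron ends are shown above, had 12.8 and 11.1 TPM and 28.2% and 27.5%, with 1015 own bases. Srsf5-212 had 30.04 and 28.3 TPM and 16.2% and 17.2%, with 853 own bases. Srsf1-206 had 17.6 and 15.7 TPM, or 17.7% and 16.4%. Srsf11-208 had 15.1 and 12.2 TPM, or 19.7% and 17.2%, with 1988 own bases of 2415. The 10 members of these genes had a median share of 16.9%, beside 16.0% over all members. The 5 described, of these 10, were lower in TPM in replicate 2. Over all 806 members the median log2 ratio of TPM between the libraries was -0.046. By scaled counts 431 of them (53.5%) were lower in replicate 2, so nothing is read from the 5.

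Members of kinase and spliceosome genes ran from 6 to over 50 TPM. Clk1-204, with 3 whole introns, had 11.0 and 9.56 TPM, above the coding Clk1-201 at 3.37 and 4.54 TPM, and 17.9% and 16.8% of the gene. Clk4-213, with 4 whole introns, had 6.46 and 6.06 TPM and Clk4-207 15.9 and 11.0 TPM. Ddx39b-204, from an RNA helicase gene, had 31.4 and 29.7 TPM, or 32.0% and 31.3%. Srrm2-209, from the gene of a large scaffold of nuclear speckles, had 51.1 and 38.3 TPM, or 20.3% and 17.3%. Rbm39-205 had 19.98 and 17.5 TPM, or 13.7% and 13.1%. The members given here were lower in replicate 2, as were 431 of all 806 members (53.5%) by scaled counts. The 28 members of the core and RBM list had a median share of 11.9%.

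The hnRNP and brain regulator members had median shares below the 16.0% of all members. The median was 6.29% for 11 hnRNP members and 9.17% for 5 members of brain regulators, among them Qk-203 with 0 own bases. By kallisto-layout values it was 10.3% and 6.49%, the other order, beside 16.8% over all members. Hnrnpl-206 had 23.3 and 19.8 TPM, or 12.7% and 11.2%, and Hnrnpa2b1-211 had 24.9 and 22.6 TPM, or 11.4% and 10.6%. Mbnl2-206, a model with 4113 own bases from the gene of a muscleblind splicing factor, had 7.07 and 6.17 TPM. Celf3-210 had 6.89 and 5.67 TPM with 1100 own bases. Of 12 genes of nuclear RNA decay and surveillance, 2 (16.7%) had a member, Rbm8a and Rnps1, both of the exon junction complex.

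Cytosolic ribosomal protein genes gave some of the highest members and the least certain ones. Of 59 expressed genes with an annotated transcript of the class, 13 (22.0%) had a member, beside 10.0% over all genes, and the list's expressed genes had a median of 225 TPM. Rps16-203 had 163 and 179 TPM, and Rps20-201, which holds a whole intron, had 124 and 109 TPM. Their shares were 62.7% and 63.2%, and 80.8% and 72.7%. The 14 members of the list had a median share of 18.5% by RSEM-layout and 37.1% by kallisto-layout values. Rpl37a-204 had 5.47 and 6.99 TPM by the first and 167 and 162 TPM by the second. Ribosomal protein genes are known for near-identical processed copies elsewhere in the genome, so these values are reported as uncertain. Across all members, 27 belong to genes with copies named as their pseudogenes.

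Host genes of small nucleolar RNAs (snoRNAs), which are cut from introns, had members in 10 of 23 cases (43.5%), beside 10.0% over all genes. The expressed genes of the list had a median of 152 TPM, against 20.8 TPM over all. Ncl-202 was the clearest, with 49.5 and 48.2 TPM and 68.6% and 71.5% of the nucleolin gene, against 15.3 and 14.8 TPM for the coding Ncl-201. It holds 2 whole introns and 682 own bases, and its share by kallisto-layout values was 70.4% and 72.8%. No annotated small RNA gene on its strand lies wholly inside its exons. The 11 members of the list had a median share of 4.48%, so most were minor. Tpt1-208, for example, had 15.8 and 10.9 TPM, or 3.26% and 2.21%.

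A small RNA gene lies inside an exon of 16 members. Whether reads of these small RNAs enter the members' levels was not tested. Rplp2-205 spans Snora52 and had 29.5 and 29.3 TPM. Stub1-206 spans Mir3082 and had 18.2 and 23.7 TPM. A330023F24Rik-204 spans Mir29b-2 and Mir29c, microRNAs abundant in mature brain, and had 15.8 and 14.2 TPM and 41.8% of its gene. Gas5-218, in a snoRNA host gene, spans 6 small RNA genes and had 7.56 and 8.47 TPM. Eif4a2-218 spans Snora81 and had 7.74 and 7.49 TPM, only 2.04% of its gene. In addition, 98 members have an annotated gene on the other strand over their exons and 32 have another gene on the same strand.

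Synaptic genes had members in 8 of 22 cases (36.4%), beside 10.0% over all genes, and the list's expressed genes had a median of 213 TPM against 20.8 TPM. Gria2-206 had 35.8 and 31.1 TPM, or 15.4% and 13.0%, and Gria2-204, with 1 whole intron and 2689 own bases, had 21.1 and 18.1 TPM, or 9.06% and 7.52%. Gria2-208 was higher in replicate 2, with 17.3 and 25.9 TPM, and has 106 own bases of 1975. Shank1-206, from a postsynaptic scaffold gene, had 27.5 and 32.5 TPM, or 11.6% and 13.0%. Dnm1-211, from the gene of neuronal dynamin, had 34.4 and 31.3 TPM, or 7.46% and 6.21%. The 12 members of the list had a median share of 8.70%.

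Some glial and Alzheimer genes had members. In bulk tissue, fewer cells of a type and less RNA per cell cannot be told apart. Of 8 glial genes with an annotated transcript 4 had a member, beside 10.0% over all such genes, and the list's expressed genes had a median of 136 TPM. Slc1a3-204, from an astrocyte glutamate transporter gene, had 24.1 and 13.8 TPM by RSEM-layout but 94.3 and 94.6 TPM by kallisto-layout values. Glul-205 had 11.3 and 6.32 TPM, or 1.29% and 0.824% of the glutamine synthetase gene. Of 23 amyloid and Alzheimer genes, whose list had a median of 33.6 TPM, 4 (17.4%) had a member. Aplp2-207, from a paralogue of the amyloid precursor, had 38.1 and 29.3 TPM, or 18.1% and 14.1%, and Inpp5d-203, from a microglial phosphatase gene, had 8.34 and 7.57 TPM, or 26.7% and 26.8%, with 24 own bases.

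The 2 quantifications gave similar orders of the members but differed on many single levels. Across the 806 members the shares correlated at 0.889 (Pearson) and 0.869 (Spearman) between the sets of values, as a description across transcripts of the same libraries. The level differed at least 2-fold between them for 95 members (11.8%), 64 higher by kallisto-layout and 31 higher by RSEM-layout values, beside 4.39% of coding transcripts past the thresholds. A share of at least 50% held by both for 44 members. Rpl37a-204 differed most, by 4.72 on the log2 scale. Gnb1-206, from a G protein beta subunit gene, had 7.25 and 8.99 TPM against 70.4 and 69.2 TPM. In the other direction Fth1-207 had 56.3 and 39.5 TPM against 8.21 and 8.75, and Stx7-203 had 25.2 and 27.5 TPM against 5.29 and 6.79. In these 4 the replicates lay closer to each other than the sets of values did.

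Most members differed little between the libraries. At a log2 ratio of counts scaled with TMM, 10 of 806 members (1.24%) were at least 2-fold apart, 2 higher and 8 lower in replicate 2. Over all 55112 transcripts with a mean of at least 10 counts it was 17.3%. The rule asks for 5 TPM in both libraries, which limits such differences, so nothing is read from that contrast. Among all transcripts past the same thresholds the proportion was 0.719%, and among the coding ones 0.560%. Shares differed between the libraries by a median of 1.51 percentage points, and by more than 10 points in 16 members, at most 22.4 points in Rpp21-205.

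The members farthest apart, among those with a mean of at least 100 counts, had few own bases. Hnrnpk-227 had 6.66 and 17.5 TPM, a log2 ratio of 1.39, and Ppdpf-205 5.22 and 12.8 TPM, a ratio of 1.29. Lower in replicate 2 were Slc25a3-204 with 13.2 and 5.09 TPM, a ratio of -1.34, Psmc1-202 with 29.1 and 11.97 TPM, and Nrcam-208 with 15.1 and 6.53 TPM. By kallisto-layout values Ppdpf-205 had 14.3 TPM in both libraries, Slc25a3-204 had 43.2 and 43.1 TPM, and Nrcam-208 had 6.78 and 23.7 TPM, the other direction. Each of these 5 has between 53 and 131 own bases. Their differences are thus not shared by both sets of values, except in Hnrnpk-227, at 23.5 and 36.2 TPM, and Psmc1-202, at 35.7 and 16.6 TPM.

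A small shift ran through the intron-rich members. On the log2 scale, the ratio of replicate 2 to replicate 1 had a median of -0.03 for members and 0.08 for coding transcripts past the thresholds. It was 0.03 for the 392 members with own bases below 25% of their length, -0.06 for 213 members from 25% to 50%, and -0.08 for 201 members at 50% or more. Of these, 174 (44.4%), 122 (57.3%) and 135 (67.2%) were lower in replicate 2, beside 30.3% of the coding transcripts. Past the same thresholds it was 41.8% of transcripts classed as nonsense-mediated decay and 42.0% of processed transcripts. The shift is not particular to the members. Over all transcripts of the class with a mean of at least 10 counts, the medians were -0.04, -0.12 and -0.16 in the same order. With library size alone as the scaling, the median of the first group of members turned to -0.015. That of the last group of members was negative under all 5 scalings or count sets tried, from -0.12 to -0.06. The class as a whole took 3.86% of the counts in replicate 1 and 3.51% in replicate 2, and long intergenic noncoding RNAs 5.37% and 5.12%. Choroid plexus markers also differed between these libraries, as given above, and their part in the shift was not tested. With 1 library on each side, it compares these libraries only.

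**Figure D5:**
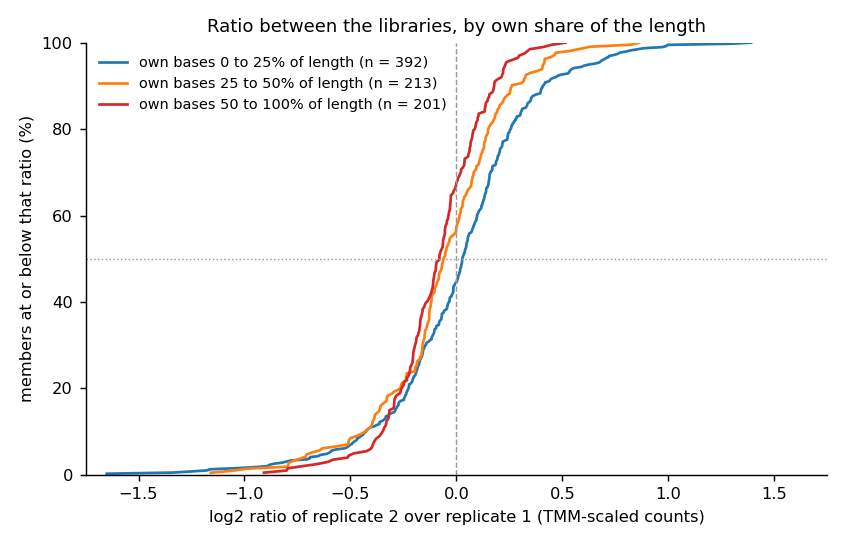
Cumulative distribution of the log2 ratio of replicate 2 over replicate 1 (x axis, TMM-scaled counts) for the 806 members in 3 groups by the share of their length that is own bases, with the percent of members at or below each ratio on the y axis. The red line, for members at 50% or more, crosses 0 at 67.2% and the blue line, for members below 25%, at 44.4%.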

How the data were processed

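Total RNA-seq of 2 libraries of 1 group was analysed, so no test between groups was made and no p-value is given. For every transcript the authors deposited an expected count with its posterior SD and a TPM value, in RSEM's column layout. They also deposited estimated counts and TPM in kallisto's layout. Both were made per library on mm10 with GENCODE M21, per the file headers and labels. The sources used here do not give the aligner, the counting programs, their versions or the strand setting. Class membership was read from the deposited kallisto-layout transcript names. RSEM-layout values are used unless stated. Rows that are not mouse transcripts (26248 with numeric identifiers and 192 others) held 0.559% and 0.534% of the expected counts and stayed out of sums and library sizes; the deposited TPM still counts them in its total.

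Shares were computed from TPM. Structure was computed from the GENCODE M21 models. Own bases were counted against all transcripts of the gene outside the class. Introns were those of its protein-coding transcripts, or of all transcripts outside the class where the gene has no coding one. An intron counts as held whole where all its bases lie in 1 exon of the member. Sequences come from the GENCODE M21 transcript sequences. For log2 ratios, rounded expected counts were scaled by TMM in edgeR 4.0.16 (R 4.3.3) with a prior count of 2. DESeq2 1.42.0 size factors were an alternative. Tables used Python 3.11.15, numpy 2.4.6 and pandas 2.3.3, and figures matplotlib 3.10.9. The structure and ratio steps were tested on simulated data. An expressed gene has a summed TPM of at least 5 in both libraries.

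Named members are the 15 of highest TPM, the 10 of highest and 5 of lowest share, the 5 with the highest and 5 with the lowest ratio between replicates at a mean count of at least 100, the 5 farthest apart between layouts in each direction, up to 6 per gene list, and 3 on each side of the threshold. Others are named as parents with many members or as spanning a small RNA gene. The members, the 13 lists and the rules were chosen with earlier results of these data known. A few items chosen by the rule are not reported here.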

Additional observations from a re-analysis of the deposited data

How the results depend on the processing

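The count of members and their median share depended on the thresholds. With a minimum of 2 TPM there were 3021 members with a median share of 10.2%, and with 10 TPM 282 members with 22.5%. The kallisto-layout or RSEM-layout minimum alone gave 1148 or 1174 members, and leaving out 1 library gave 964 to 1092. Genes of the lists with a member numbered 71, and 147 at 2 TPM and 39 at 10 TPM. The median share was 16.8% by kallisto-layout values, 13.8% over members with at least 100 own bases, and 7.67% by expected counts, which are not divided by length and so weigh short transcripts less. It was 15.6% to 16.4% with 1 library left out. The pooled share was 18.5% by kallisto-layout values and 8.89% by expected counts, and 16.3% to 16.9% with 1 library left out. Genes at 50% or more numbered 67, with 76 by kallisto-layout values, 52 by expected counts and 67 to 68 with 1 library left out. Members 2-fold apart numbered 8 to 13 over the other scalings, counts, prior counts and filters. Of 97 named shares, 70 moved by more than the spread between libraries with kallisto-layout values, 85 with expected counts and 27 with a pseudocount of 1 TPM; with 2 libraries, leaving out 1 cannot move a share by more than that spread. A comparison chosen after seeing the data took the median log2 ratio between libraries with library size alone. For members with own bases below 25% it turned from 0.028 to -0.015, and the other groups of members kept their sign. For transcripts classed as nonsense-mediated decay past the thresholds it went from 0.043 to -1.8e-05. No paired analysis was possible because there is only 1 group.

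The limits include few libraries and shared reads. The libraries are of total RNA, which can hold unspliced primary transcripts. Whether reads of those enter the members' levels was not tested. The effect of CAST alleles on values made with mm10 was not tested either. Reads on the own bases of a member were not counted here. Whether the 2 libraries come from different animals is not settled, so the SD can be technical. Intervals from the posterior SD cover counting and read assignment in 1 library only.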
